A study of Mus musculus with 50 samples.

Results

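Motor proteins of the kinesin and dynein families were followed through their genes in mouse spinal motor neurons, from the newborn neuron of the embryo to 2yr-old animals and in culture. Members were found by symbol alone, as names that begin with Kif and a digit, with Dync or with Dynl, and 3 pseudogenes were left out. The rule gave 56 genes among the 55385 of the deposited tables, 40 with Kif symbols and 16 dynein genes. They were described as 11 mitotic kinesins, 10 axonal kinesins, 5 other transport kinesins, 6 ciliary and centriolar kinesins, 4 microtubule regulators and partners, 5 subunits of cytoplasmic dynein-1, 2 of dynein-2, 9 dynein light chains and 4 remaining genes (Kif12, Kif16bos, Kif28, Kif2b).

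RNA was sequenced at E10.5 (3 libraries), E13.5 (2), P4 (3), P13 (2), P21 (3), P56 (3) and 2yr (2), and in cultured motor neurons at DIV0 (2), DIV7 (2), DIV28 (3) and DIV28 with TTX (3). At E10.5 whole GFP+ cells were sorted from pooled Hb9-GFP heterozygous embryos. From E13.5 onwards nuclei were pulled down with anti-GFP beads from brachial and lumbar cord of pooled Chat-Cre;SUN1-GFP-3xMYC mice of both sexes, so the isolation and the age of the E10.5 libraries cannot be told apart. Chat-Cre also marks cholinergic interneurons and visceral motor neurons. The paper reports that the pulled-down nuclei were less pure at E13.5 and P4, with some contamination from blood vessels, than from P13 onwards. The cultures all came from 1 embryonic stem cell line with the same 2 alleles. Motor neuron nuclei were purified from its embryoid bodies (DIV0), or after growth on glia from P2 cortex in medium with GDNF, BDNF, CNTF, IGF and the antimitotic UFDU, with or without 1 uM TTX, a blocker of voltage-gated sodium channels, from DIV0 to DIV28. ATAC-seq, which reads open chromatin, had 2 libraries in each of the 11 groups. Its nuclei were sorted by GFP instead of pulled down, and those of cord came from thoracic segments as well. The paper reports high purity for them at all ages, so RNA and ATAC libraries differ in their material.

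Kinesins use ATP to move along microtubules, most of them towards the plus end, which in an axon points to the terminal. One set of them builds and moves the mitotic spindle and splits the dividing cell, and another carries vesicles and organelles out along axons and dendrites. Cytoplasmic dynein-1 runs the other way, towards the cell body, as a pair of heavy chains with intermediate, light intermediate and light chains, while dynein-2 works inside cilia. A spinal motor neuron does not divide and has one of the longest axons of the body, so its motors must cover a long distance, and mutations in KIF5A, KIF1A, DYNC1H1 and BICD2 cause inherited disease of motor neurons or their axons.

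Totals per RNA library ran from 2704682 to 21823500 counts. The library titled DIV0 replicate 3 is used as DIV28 replicate 3, since it ranked genes like the other DIV28 libraries (mean Spearman correlation 0.9501, against 0.8169 with DIV0), and results that rest on it are also given without it or with it in DIV0. The E10.5 and E13.5 libraries differed among themselves. Summed over its list, mitotic kinesin counts were 4561 in E10.5 replicate 2 and 2178 in replicate 3, and 2128 and 3613 at E13.5, and the E13.5 replicate with more also had more counts of endothelial markers (17250 against 8713) and of neural progenitor markers (20540 against 12710) and fewer of motor neuron markers (767 against 1602). Counts are normalised counts, scaled with median-of-ratios size factors over all RNA libraries. The tested changes come from fits scaled with TMM factors, so they can differ somewhat from ratios of these counts. Rose and fell are kept for changes past the limits of the study, p under 0.001 and at least 2-fold, by edgeR's quasi-likelihood test, and a change is given as log2 fold change ± SE. Of the 56 members, 50 passed the filter on low counts in tissue, 42 in culture and 51 in the joint fit of both, and the 4 remaining genes passed in none of them.

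The mitotic kinesins fell after E13.5. Between E13.5 and P4, 10 of the 11 fell, where 19% of the 15030 tested genes fell and 23.8% rose. Their median change was −2.84, beside 0.12 for all genes tested. By P21 all 11 were lower than at E13.5 (median −5.05, all genes 0.15), where 26.3% of genes fell and 29.8% rose.

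Kif11, the bipolar motor that pushes the spindle poles apart (chromosome 19, 37376403 to 37421859 of mm10), counted 538.9, 720.4 and 297.5 at E10.5, 369.4 and 594.2 at E13.5, and 57.2, 56.8 and 59.9 at P4. It reached 23.8, 18.3 and 17.96 at P21. No P4 library came near an embryonic one, and the change from E13.5 to P4 was −2.91 ± 0.31, or 7.52-fold.

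Kif20a, which acts in cytokinesis, had the largest change of the list at that step, from 264.1 and 344.5 to 11.2, 22.9 and 22.5 (−3.86 ± 0.31). Kif23, the motor of the central spindle, went from 294.6 and 558.6 to 42.6, 32.8 and 58.6 (−3.12 ± 0.38). Kif2c, which takes microtubules apart at kinetochores, fell by 3.33 and Kif4, a motor bound to chromosomes, by 2.84 on the log2 scale. The groups did not overlap in any member that passed the limits at this or another step. With so few libraries a member that passes the limits is likely to show this, so it adds no support. Kif18a, a regulator of spindle microtubule length, was the exception among the mitotic kinesins. It was short of the limits at −0.57 ± 0.41, with 48.9 and 60.9 counts at E13.5 and 53.8, 27.3 and 18.7 at P4.

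Further steps down followed after birth, at lower counts. Between P4 and P13 Kif2c (−2.57 ± 0.62) and Kif4 (−2.92 ± 0.58) fell, where 7.54% of genes fell. At an edgeR adjusted p under 0.05 with no fold limit 8 of the 11 were lower, and the share of all genes at that limit is not given. Kif18b had no count in the 3 P21 libraries and was at least 55.83-fold lower than at E13.5, against a floor of 3 counts over the group. Kif2c had 3 counts over the same libraries, a ratio of 141 with a 95% counting interval of 48.24 to 683.6. Kif20b, another cytokinesis motor, stayed highest, at 53.1, 50.6 and 41.4 counts at P21 and 44.4 and 33.8 at 2yr, and its change from E13.5 to P21 was −2.57 ± 0.39.

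Going from E10.5 to E13.5, Kif18b (−1.65 ± 0.30) and Kif22, a motor that moves chromosome arms (−1.46 ± 0.26), fell, where 19.4% of genes fell and 24.6% rose, and 9 mitotic kinesins did not pass the limits. Without E13.5 replicate 1 the Kif18b change was −1.32 and missed them. Leaving out E13.5 replicate 2 took the Kif20b change from E13.5 to P4 to −1.45 and the Kif18a change from E13.5 to P21 to −2.15 (−2.25 without P21 replicate 2), all short of the limits. Without P13 replicate 1 Kif4 stood at −2.16 from P4 to P13, and Kif2c missed the limits without P4 replicate 2 or 3 or either P13 library (−3.32 to −1.84).

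Summed markers of some other cells moved with this group. Those of oligodendrocytes went the other way, from 265 to 337.2 at E13.5 to 1953 to 2539 at P4. Astrocyte markers did too, from 199.5 to 368.4 at E13.5 to 2096 to 2725 at P4. All 14 genes of a proliferation list that holds no member fell from E13.5 to P4 (median −3.18), and their summed counts went from 7148 to 13740 at E13.5 to 1205 to 1427 at P4 and 135.7 to 161.1 at P21. The 4 endothelial markers summed to 8713 to 17250 at E13.5, 4686 to 6290 at P4 and 33.56 to 60.46 at P21, and the 6 neural progenitor markers to 12710 to 20540, 1815 to 2092 and 60.13 to 113.3. From E13.5 to P4, 2 endothelial markers fell and none rose, while 3 progenitor markers fell and 1 rose. From E13.5 to P21 all 4 endothelial markers fell, while 4 progenitor markers fell and 1 rose. The 4 erythroid markers summed to 4106 to 4327 at E13.5 and 105.2 to 192.7 at P21. Their part in the fall of the mitotic kinesins was not tested, and in bulk libraries fewer cells of a type and less RNA per cell cannot be told apart.

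**Figure D1:**
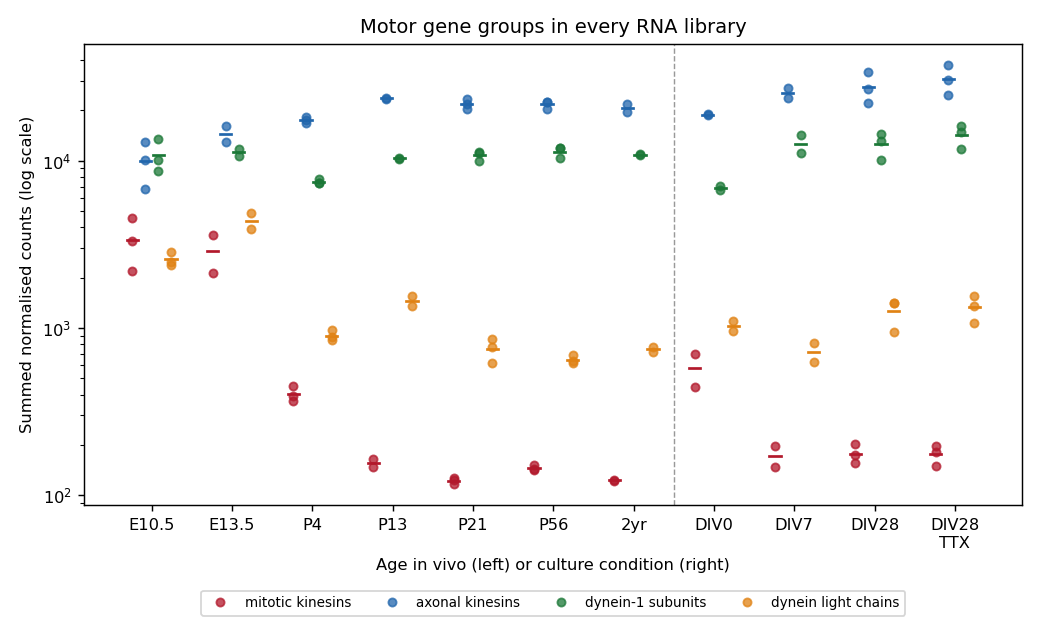
Summed normalised counts (log scale) of 4 motor gene groups, 1 point per RNA library and a bar at each group mean, by age in vivo (left of the dashed line) and culture condition (right). The mitotic kinesins drop from 2178 to 4561 at E10.5 to 116 to 127.3 at P21, while the axonal kinesins go from 6760 to 12930 to 20490 to 23300.

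The starts of these genes share short motifs. Genes that peak at mitosis often carry a CHR element, TTTGAA or TTCGAA, where the DREAM complex sits in resting cells, close to a CCAAT box bound by NF-Y. In windows of 250 bases before to 50 bases after the start (RefSeq promoters of GRCm38.p6, 43 of 56 members matched in 49 windows), 9 of 10 mitotic kinesin windows held a CHR on either strand, 1 of 9 axonal windows (of 7 genes) did, and 19.23% of all 32851 promoters did. The axonal match belongs to a second Kif1a start that lies 19471 bases from the GENCODE start and held no ATAC peak. A CCAAT box stood in 6 of 10 mitotic and 4 of 9 axonal windows and in 37.41% of all. Both stood together in 6 of 10 mitotic windows, in none of the axonal ones and in 7.525% of all promoters. They also did so in 2 of 6 ciliary and centriolar windows and in 1 of 4 windows of microtubule regulators and partners. An E2F site (TTCGCGCC, TTTGGCGC or TTTCCCGC) was present in 2 of 10, beside 2.049% of all, and in Kif15 it lies next to the CHR. The windows of Kif14 and Kif2c start 1505 and 3867 bases from the GENCODE start and held no ATAC peak, so their matches may lie outside the promoter in use. A match is a string of letters, not a bound site.

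Shown first are 4 mitotic kinesins that hold both motifs near the start, then the main starts of 2 axonal kinesins, which hold neither, each 5′ to 3′ on the strand of its gene with motif letters in capitals. The windows are chr19:37376132-37376431 (Kif11, plus strand), chr9:61946750-61947049 (Kif23, minus), chr11:102925075-102925374 (Kif18b, minus), chrX:100625815-100626114 (Kif4, plus), chr1:93101825-93102124 (Kif1a, minus) and chr2:49619036-49619335 (Kif5c, plus).
Kif11: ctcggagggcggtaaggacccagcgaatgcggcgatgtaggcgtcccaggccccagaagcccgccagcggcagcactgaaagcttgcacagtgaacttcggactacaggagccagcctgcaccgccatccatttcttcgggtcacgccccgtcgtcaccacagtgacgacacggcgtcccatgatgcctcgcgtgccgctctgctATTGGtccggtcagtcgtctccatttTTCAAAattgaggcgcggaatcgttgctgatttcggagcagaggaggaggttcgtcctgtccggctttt
Kif23: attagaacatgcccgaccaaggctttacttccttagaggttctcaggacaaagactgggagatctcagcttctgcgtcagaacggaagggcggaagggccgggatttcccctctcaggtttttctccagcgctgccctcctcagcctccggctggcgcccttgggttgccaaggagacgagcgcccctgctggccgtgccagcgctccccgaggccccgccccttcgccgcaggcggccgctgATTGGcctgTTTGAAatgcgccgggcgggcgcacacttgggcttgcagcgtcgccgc
Kif18b: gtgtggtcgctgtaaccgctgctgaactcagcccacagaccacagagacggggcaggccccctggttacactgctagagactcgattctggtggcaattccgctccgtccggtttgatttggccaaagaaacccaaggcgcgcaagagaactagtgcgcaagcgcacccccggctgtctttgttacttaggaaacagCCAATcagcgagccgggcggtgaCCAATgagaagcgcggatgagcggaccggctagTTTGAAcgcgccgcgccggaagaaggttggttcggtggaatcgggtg
Kif4: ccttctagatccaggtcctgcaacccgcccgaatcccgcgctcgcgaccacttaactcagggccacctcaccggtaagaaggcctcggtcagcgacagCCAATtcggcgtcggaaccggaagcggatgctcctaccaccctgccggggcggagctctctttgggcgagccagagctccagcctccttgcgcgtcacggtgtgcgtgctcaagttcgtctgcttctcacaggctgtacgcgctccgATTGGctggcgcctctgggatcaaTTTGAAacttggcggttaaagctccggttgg
Kif1a: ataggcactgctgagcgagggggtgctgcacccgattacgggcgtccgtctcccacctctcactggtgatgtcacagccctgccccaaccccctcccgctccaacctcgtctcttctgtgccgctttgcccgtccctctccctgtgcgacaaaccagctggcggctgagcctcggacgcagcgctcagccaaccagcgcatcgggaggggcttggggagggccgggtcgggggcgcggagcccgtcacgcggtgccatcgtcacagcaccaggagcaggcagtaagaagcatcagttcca
Kif5c: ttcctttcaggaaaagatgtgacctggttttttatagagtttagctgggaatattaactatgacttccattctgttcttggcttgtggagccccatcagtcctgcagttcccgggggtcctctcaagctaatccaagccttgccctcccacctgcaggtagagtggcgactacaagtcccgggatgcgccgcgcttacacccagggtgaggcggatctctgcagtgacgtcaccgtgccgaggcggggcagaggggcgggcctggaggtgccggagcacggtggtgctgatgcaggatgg

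Counted with the start as base 1, the CHR begins at −19 in Kif11, 3 in Kif23, 4 in Kif18b and 20 in Kif4, and a CCAAT box lies upstream of it at −45, −7, −30 and −5. The second Kif18b box is at −53 and the second Kif4 box at −152.

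The starts of these genes kept an ATAC peak at ages with little of their RNA. All 11 mitotic kinesins had an ATAC peak at the GENCODE start in each of the 22 libraries, beside 64.31% of the 15548 expressed genes and 48 of the 56 members. The median fold enrichment of their peaks was 20.46 and 32.48 in the 2 libraries at E13.5 and 12.12 and 14 at P21, and that of all expressed genes went from 12.97 and 19.27 to 8.092 and 9.198. Kif11 stood at 37.48 and 21.04 at E13.5, 19.49 and 19.64 at P21 and 16.35 and 15.58 at 2yr. The fold enrichment is a ratio to the background of the same library and peaks were called library by library, so levels are not compared between groups by a test.

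**Figure D2:**
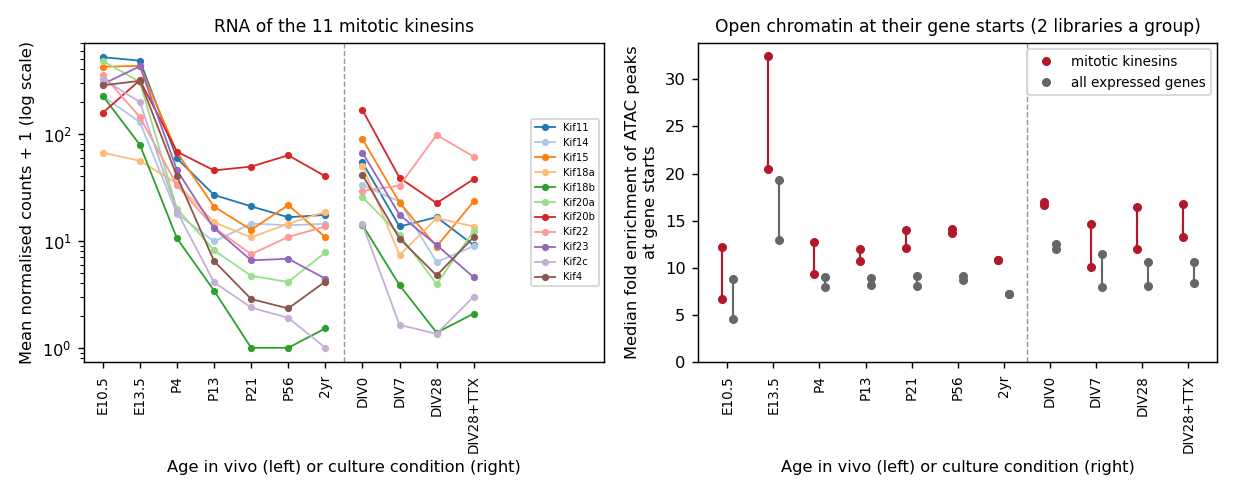
Left, mean normalised counts plus 1 (log scale) of the 11 mitotic kinesins in each group. Right, median fold enrichment of ATAC peaks at gene starts for the mitotic kinesins (red) and all expressed genes (grey), with both libraries of a group joined by a line. RNA drops after E13.5, whereas the red points lie at 12.12 and 14 at P21, above the grey 8.092 and 9.198.

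Axonal kinesins were the largest group of the motor RNA from P4 onwards in tissue, and in culture from DIV0. Per length of transcript, they made up 20.7 ± 4.56% (SD, n = 3) of the summed level of all members at E10.5, 28.5 ± 5.44% (n = 2) at E13.5, 50.5 ± 1.26% (n = 3) at P4 and 55.5 ± 1.84% (n = 3) at P21. The mitotic kinesins took 15.6 ± 6.23%, 10.6 ± 3.799%, 1.98 ± 0.12% and 0.593 ± 0.011% at the same ages. The dynein light chains took 36.5 ± 1.46%, 30.1 ± 0.97%, 10.8 ± 0.07% and 5.92 ± 1.32%. In culture the axonal kinesins took 56.3 ± 1.29% at DIV0 (n = 2) and 55.2 ± 1.34% at DIV28 (n = 3). At P21 the highest levels per length were those of Kif5c, Kif1a and Dync1h1 (1082 ± 98.3, 1075 ± 16.3 and 984.9 ± 77.1 counts per kilobase), which did not differ beyond their spread, while at E10.5 Dynll1 (1127 ± 78.8) led. Between E13.5 and P21 the summed counts of markers of motor neurons went from 767 and 1602 to between 2527 and 2532 (2 of 5 genes higher), and those of oligodendrocytes from 265.0 and 337.2 to between 5990 and 8183 (5 of 6 higher, 1 lower). Astrocyte markers went from 199.5 and 368.4 to between 962.2 and 1347 (4 of 6 higher, 1 lower), and endothelial markers from 8713 and 17250 to between 33.6 and 60.5. Their part in these shares and in the changes of single axonal kinesins was not tested.

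From E13.5 to P21, 2 of 10 axonal kinesins rose and none fell (median 0.51, all genes 0.15), where 29.8% of genes rose and 26.3% fell. Kif1a, the carrier of synaptic vesicle precursors (chromosome 1, 93015464 to 93101951), counted 1541 and 811.7 at E13.5, 3769, 3675 and 3175 at P4, and 5637, 4724 and 4489 at P21. It rose by 1.74 ± 0.41 to P4 and was 2.23 ± 0.42 higher at P21. Kif5a, the conventional kinesin heavy chain found in neurons, went from 1595 and 1186 at E13.5 to 3846, 3154 and 2996 at P21 (1.42 ± 0.32). All P4 and P21 values of Kif1a and all P21 values of Kif5a lay above both E13.5 libraries. These calls rest on the E13.5 libraries: without replicate 2 there Kif1a changed by 1.36 to P4 and 1.85 to P21 and Kif5a by 1.23 to P21, none past the limits. Kif5a also missed them without E13.5 replicate 1 (1.65) or P21 replicate 1 (1.29), and Kif1a to P4 without P4 replicate 1 or 2 (1.69 and 1.71).

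Kif21a moved up and then back. This kinesin-4 motor, mutated in a congenital fibrosis of the eye muscles, counted 588.6, 430.7 and 568.2 at E10.5, 2373 and 1805 at E13.5, 1923, 2061 and 2213 at P4, 5718 and 5816 at P13, and 3320, 3289 and 2924 at P21. It rose from E10.5 to E13.5 (1.82 ± 0.16) and from P4 to P13 (1.57 ± 0.16), where 5.8% of genes rose. From P13 to P21 it was 0.95 ± 0.16 lower, just short of 2-fold (edgeR adjusted p = 0.000449). The other 2 axonal members that rose from E10.5 to E13.5 were Kif3a, the kinesin-2 subunit shared by axons and cilia (1.86 ± 0.21), and Kif5b, the heavy chain present in most cell types (1.29 ± 0.22, but 1.00 and not past the limits without E13.5 replicate 2). Oligodendrocyte markers were also high at P13: their sum was 1953 to 2539 at P4, 10710 to 10850 at P13 and 5990 to 8183 at P21, with all 6 higher from P4 to P13 and 2 lower from P13 to P21. Their part in the P13 values of Kif21a, and of Dync1i1, Dynll1, Dynll2 and Kif1bp, was not tested.

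Kif1b, Kif3b, Kif3c, Kif21b and Kif5c did not pass the limits at any step in tissue. Kif5c, the third conventional heavy chain, counted 2500 and 1386 at E13.5 and 2245, 2271 and 2113 at P21. Kif1b, which carries mitochondria and synaptic vesicle precursors, kept between 2715 and 4413 counts from E13.5 to 2yr, and was 0.68 ± 0.18 higher at P21 than at E13.5 (edgeR adjusted p = 0.00197). Of the exon bases of Kif3c, 35.34% also belong to a gene on the opposite strand, and since counting was not stated to use strand the reads of both cannot be told apart.

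Shares within the families are given as levels per length. Within the KIF1 family, Kif1a held 22.7 ± 8.07% of the level per length at E13.5 and 55.99 ± 1.53% at P21, and Kif1c 21.4 ± 11.9% and 2.59 ± 0.67%. Among the conventional heavy chains Kif5c kept about the same share, 47.4 ± 13.9% at E13.5 and 51.6 ± 0.23% at P21, while Kif5a went from 12.9 ± 1.55% to 27.4 ± 2.22% and Kif5b from 39.7 ± 15.4% to 20.98 ± 2.01%. The 2 E13.5 libraries alone spread over Kif5b shares that the P21 libraries do not reach.

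**Figure D3:**
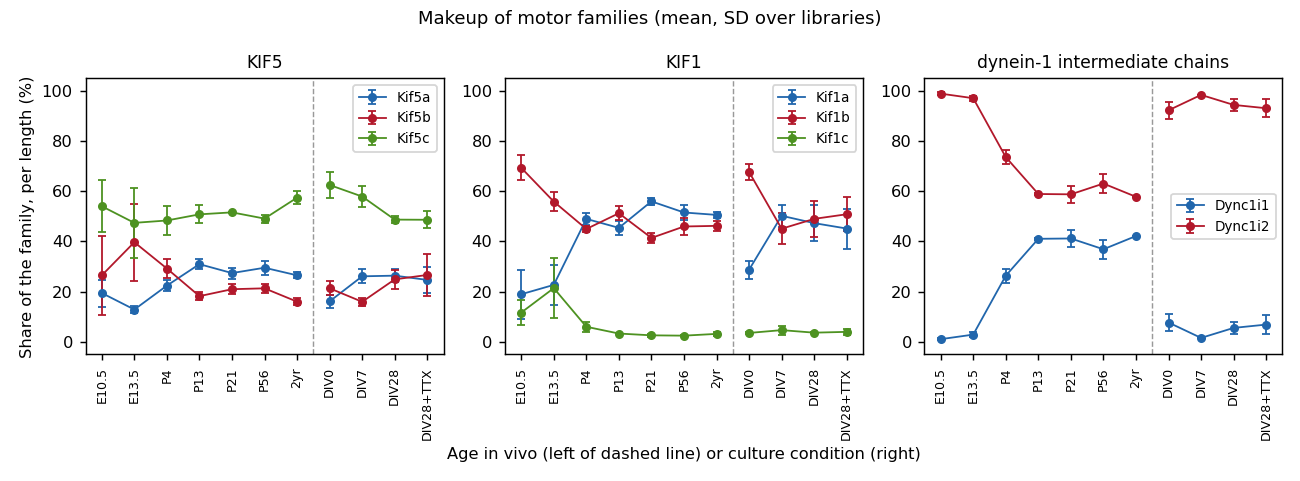
Share of each gene in the level per length of its family (%), as mean and SD over libraries, for the conventional kinesins (KIF5), the KIF1 family and the intermediate chains of dynein-1, by age in vivo (left of the dashed line) and culture condition (right). Dync1i1 goes from 2.88% at E13.5 to 41.2% at P21 and stays at 5.55% at DIV28, while Kif1a reaches 55.99% at P21.

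Dynein-1 changed in its intermediate chain, the subunit that links the motor to dynactin and cargo. Dync1i1, the form known from neurons (chromosome 6, 5725639 to 6028039), was nearly absent at E10.5 with 5.3, 2.1 and 3.1 counts. It counted 97.0 and 57.5 at E13.5, 270.3, 280.6 and 356.8 at P4, 880.8 and 1000 at P13, and 599.9, 621.5 and 628.5 at P21. Each age up to P13 lay wholly above the one before. It rose by 4.25 ± 0.30, 2.15 ± 0.21 and 1.72 ± 0.18 at the 3 steps, and was 0.69 ± 0.18 lower from P13 to P21.

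Dync1i2, the form present in most tissues (chromosome 2, 71211706 to 71263303), went another way. It rose from 711.5, 628.4 and 929.0 at E10.5 to 2547 and 2560 at E13.5 (1.60 ± 0.16) and fell to 936.7, 991.3 and 941.9 at P4 (−1.27 ± 0.16). At P21 it was 1.05 ± 0.16 below E13.5, or 0.96 below without P21 replicate 1, which misses the limit of 2-fold. The log2 ratio of Dync1i1 to Dync1i2 counts was −7.69 ± 0.63 (SD, n = 3) at E10.5, −5.09 ± 0.54 (n = 2) at E13.5, −1.67 ± 0.23 (n = 3) at P4 and −0.84 ± 0.16 (n = 3) at P21. Both genes are read in the same libraries, so the ratio does not depend on how libraries were scaled.

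The heavy chain Dync1h1, the motor itself, did not pass the limits at any step. It counted 8184, 6851 and 10950 at E10.5, 6191 and 7126 at E13.5, 4660, 4627 and 4994 at P4, and 8064, 7657 and 6672 at P21. The light intermediate chains did not pass them either, although Dync1li1 was 0.82 ± 0.19 lower and Dync1li2 0.08 lower from E13.5 to P4, and Dync1li1 made up 54.5 ± 3.41% of the pair per length at E10.5 and 17.3 ± 2.02% at P21. In the dynein of cilia, Dync2h1 rose from 419.2 and 318.3 at E13.5 to 844.7, 1030 and 965.6 at P4 (1.51 ± 0.29, and 1.34 without E13.5 replicate 2, not past the limits) and stood 1.92 ± 0.29 above E13.5 at P21. Dync2li1 kept between 17.6 and 38.2 counts at all ages.

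The light chains are small proteins that dynein shares with many other complexes. None of the 8 tested rose from E13.5 to P4 and 4 fell (median −1.02, all genes 0.12), where 23.8% of genes rose and 19% fell. Dynll1, the main LC8 chain (chromosome 5, 115297110 to 115300999), counted 700.0, 824.1 and 755.1 at E10.5, 2290 and 3512 at E13.5, 167.1, 184.5 and 255.8 at P4, 377.8 and 443.8 at P13, and 106.3, 109.7 and 117.4 at P21. It rose, fell, rose and fell again (1.78 ± 0.18, −3.696 ± 0.19, 1.11 ± 0.19 and −1.97 ± 0.19). Without P4 replicate 1 its change from P4 to P13 was 0.99, just under 2-fold. The effective length that RSEM gave Dynll1, which depends on the transcript models its reads were assigned to, averaged 675.3 bases at E10.5, 1689 at E13.5 and 949.8 at P21.

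Dynll2, its close relative, fell from 847.3, 847.6 and 874.1 at E10.5 to 435.8 and 296.4 at E13.5 (−1.39 ± 0.20), rose from P4 to P13 (1.297 ± 0.19) and fell from P13 to P21 (−1.02 ± 0.19). That last fall missed 2-fold without P13 replicate 2 or P21 replicate 1 (−0.88 and −0.84). Dynlrb1, a roadblock chain, fell from 389.7 and 295.6 at E13.5 to 107.7, 108.1 and 123.5 at P4 (−1.45 ± 0.25). Dynlt3, a Tctex chain, had 12.98, 15.2 and 15.2 counts at E10.5 and 181.9 and 238.1 at E13.5 (3.702 ± 0.21), and kept between 125.1 and 314.8 at all later ages. Its groups did not overlap, and Dynlt3 and Dync1i1 had the 2 largest rises of all members at that step.

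Dynlt1a, Dynlt1b, Dynlt1c and Dynlt1f are near-identical copies, so the split of reads between them is uncertain. As counted, Dynlt1b fell from E13.5 to P4 (−2.36 ± 0.34) and Dynlt1f as well (−1.81 ± 0.44), the second of which missed the limits without either E13.5 library or P4 replicate 2 or 3 (−1.81 to −1.60). From E10.5 to E13.5 Dynlt1b fell by 1.23 on the log2 scale, a call lost without E10.5 replicate 3 or either E13.5 library (−1.38 to −0.69). Dynlrb2 never exceeded 3.3 counts in a library.

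**Figure D4:**
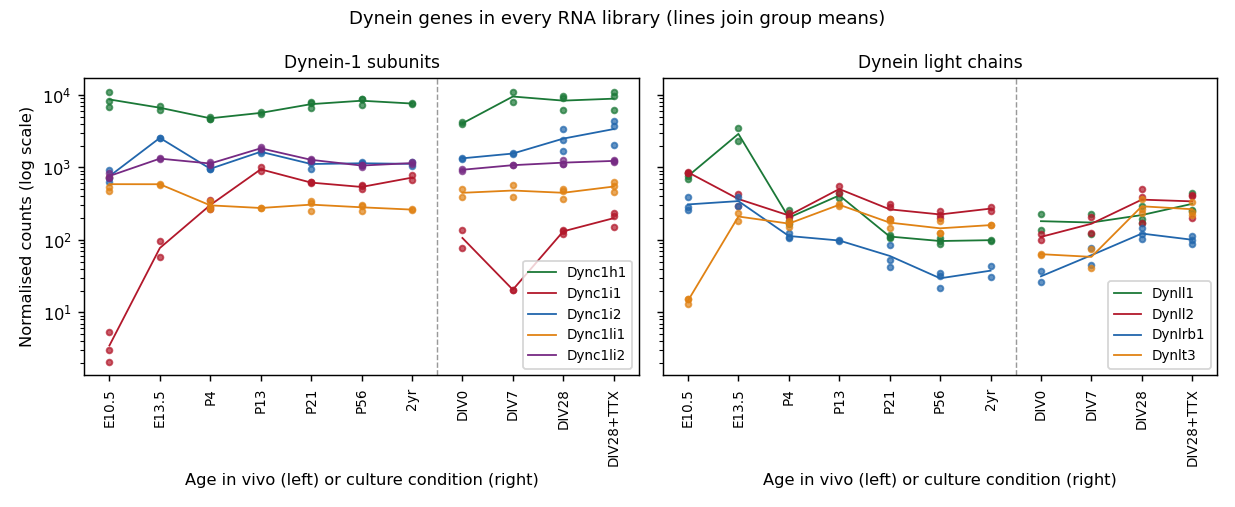
Normalised counts (log scale) of the 5 dynein-1 subunits (left panel) and 4 light chains (right panel), 1 point per RNA library, with lines through the group means. Dync1i1 climbs from 2.1 to 5.3 counts at E10.5 to 599.9 to 628.5 at P21 but lies between 20.4 and 139.0 in culture without TTX, and Dynll1 drops from 2290 and 3512 at E13.5 to 167.1 to 255.8 at P4.

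Among the remaining transport kinesins Kif17, a homodimeric kinesin-2 of dendrites and cilia, rose most. It counted 16.6 and 9.4 at E13.5, 39.3, 49.1 and 34.9 at P4, and 106.3, 84.4 and 111.9 at P21 (3.18 ± 0.29 from E13.5). Its rise from E10.5 to E13.5 (1.65 ± 0.39), from 3.1 to 3.8 counts, was lost without any 1 of the E10.5 libraries or without E13.5 replicate 1 (1.27 to 1.75). Kif16b, which moves early endosomes, rose from E10.5 to E13.5 (1.82 ± 0.19). Kif1c fell from 542.0 and 1131 at E13.5 to 282.5, 187.0 and 208.6 at P21 (−1.74 ± 0.28, and −1.10 without E13.5 replicate 2, not past the limits), and its rise to E13.5 (1.39 ± 0.28) was 0.74 without that library. Kif13b, another cargo carrier, fell from E10.5 to E13.5 (−1.64 ± 0.18) and was 1.05 ± 0.18 higher at P21 than at E13.5, a call lost without E13.5 replicate 1 (0.75) or P21 replicate 2 (0.99).

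Of the 5 kinesins of cilia and centrioles tested, 1 rose and 1 fell from E13.5 to P21, where 29.8% of genes rose and 26.3% fell. Kif9, known from motile cilia, rose from 9.2 and 6.9 at E13.5 to 36.4, 54.8 and 45.6 at P21 (2.68 ± 0.32). Its rise to P4 (1.85 ± 0.33) was 1.62 and not past the limits without E13.5 replicate 2. Kif7, a regulator of hedgehog signalling at the tip of the primary cilium, fell from 53.6 and 61.4 to 9.8, 8.4 and 1.4 over the same span (−2.97 ± 0.43). At the Kif7 start 16 of 22 ATAC libraries had a peak, with both libraries of each group from E10.5 to P4 and in culture, and neither at P21 or P56. Of its exon bases, 19.14% lie on the opposite strand of a noncoding gene. Kif24, which acts at centrioles, fell from E10.5 to E13.5 (−1.38 ± 0.32), a call lost without E10.5 replicate 1 or 2 or E13.5 replicate 1 (−1.36 to −1.02). Kif19a fell from P13 to P21 (−2.08 ± 0.49), where 5.8% of genes fell and 1.5% rose, at counts of 29.9 and 41.8 against 4.2 to 12.4, and lost the call without either P13 library or P21 replicate 1 or 2 (−2.29 to −1.75).

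Kif26a and Kif26b, relatives without motor activity, both rose from E10.5 to E13.5 and were called in opposite directions at later steps. Kif26b rose from E10.5 to E13.5 (2.37 ± 0.21) and again to P4 (1.305 ± 0.21, but 0.91 without E13.5 replicate 2), and kept between 658.8 and 989.3 counts from P4 to 2yr. Kif26a fell from 250.2, 229.3 and 188.4 at P4 to 38.6 and 37.1 at P13 (−2.46 ± 0.38). Its rise from E10.5 to E13.5 (1.54 ± 0.32) was 1.05 and not past the limits without E13.5 replicate 2. Kif2a, which trims microtubules in growing axons, rose from E10.5 to E13.5 (1.34 ± 0.13). Kif1bp, a protein that binds several kinesins and blocks their hold on microtubules, fell, rose and fell at successive steps after E13.5 (−1.24 ± 0.19, 1.301 ± 0.19 and −1.16 ± 0.19). Its counts were 494.9 and 481.8, then 217.6, 157.2 and 185.9, then 417.5 and 449.4, then 207.0, 210.9 and 198.9, and P13 and E13.5 were the high ages.

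**Figure D5:**
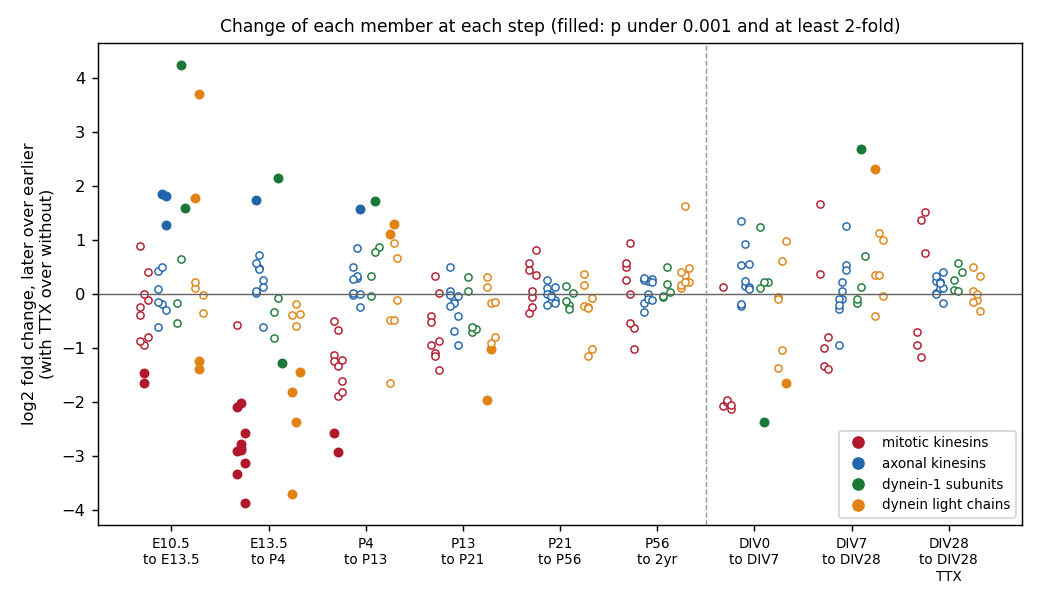
log2 fold change of each member of 4 groups at each step in tissue (left of the dashed line) and in culture (right), with filled points past the limits of p under 0.001 and at least 2-fold. Members with 3 counts or fewer over a compared group are not drawn. At E13.5 to P4 the mitotic kinesins have filled points from −3.86 to −2.01, and the light chains Dynll1 and Dynlt1b are filled in the same range. No point is filled from P21 onwards in tissue or with TTX.

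Over the 50 members tested, 13 rose and 6 fell from E10.5 to E13.5, where 24.6% of genes rose and 19.4% fell. From E13.5 to P4, 6 rose and 16 fell (genes 23.8% and 19%). From P4 to P13, 5 rose and 3 fell (genes 5.8% and 7.54%), and from P13 to P21 none rose and 4 fell (genes 1.5% and 5.8%). From E13.5 to P21 as a whole 7 rose and 20 fell (genes 29.8% and 26.3%). Adulthood brought no call. From P21 to P56, where 0.0466% of genes rose and 0.126% fell, edgeR called none of 50 members, 3 had an unadjusted p under 0.05, and DESeq2 called 1 (Dynlrb1, lower). From P56 to 2yr, where 0.499% rose and 0.186% fell, neither edgeR nor DESeq2 called a member and 3 had an unadjusted p under 0.05 in each. In aged animals Kif1a counted 4224 and 3861, against 5724, 5770 and 4610 at P56 (−0.34 ± 0.39), and Kif5a 3151 and 2759 against 3502, 3488 and 2863 (−0.08 ± 0.30). Dync1i1 stood at 781.2 and 664.4 against 501.8, 562.6 and 547.5 (0.49 ± 0.18, edgeR adjusted p = 0.259).

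Partners of the motors were read from lists of genes outside the rule. From E13.5 to P21, where 29.8% of genes rose and 26.3% fell, 7 of 11 cargo adaptors rose and none fell (median 1.39), among them Bicd1 (2.495 ± 0.30), which couples dynein to its cargo, and Mapk8ip3 (1.62 ± 0.19) and Trak1 (1.58 ± 0.15), which load kinesin-1 and mitochondria. Of 12 dynactin subunits and dynein regulators 4 fell and none rose (median −0.21). The 3 with the largest changes were Nde1 (−3.39 ± 0.29), which also works in dividing progenitors, Dctn3 (−3.39 ± 0.34) and Dctn6 (−1.67 ± 0.24). Of 8 tested kinesin partners and other kinesins, Kifc2 (3.53 ± 0.30) and the light chain Klc2 (1.94 ± 0.22) rose, and the mitotic motors Cenpe (−5.78 ± 0.49) and Kifc1 (−2.93 ± 0.36) fell.

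In culture the mitotic kinesins started low. Their summed counts were 446.4 and 701.7 at DIV0, 148 and 197 at DIV7 and 156.4 to 202.9 at DIV28. From E13.5 to DIV0, 8 of 11 fell across the 2 sources (median −2.59, all genes −0.17), where 24.3% of 15521 genes fell and 15.1% rose. Over all members 5 rose and 16 fell there. Kif15 (−2.31 ± 0.47) and Kif18b (−2.59 ± 0.50) missed the limits without E13.5 replicate 2 or DIV0 replicate 2 (−1.83 and −2.19, and −2.06 and −2.31). Of the axonal kinesins, Kif3c was higher at DIV0 (1.35 ± 0.28) and Kif5b lower (−1.14 ± 0.26), and both missed the limits without E13.5 replicate 2 or DIV0 replicate 2 (1.04 and 1.25, and −0.84 and −1.10). Among the other members Kif13b (1.81 ± 0.24) and Dync2h1 (1.59 ± 0.31, but 1.41 and short of the limits without E13.5 replicate 2) were higher, and Dynll1 (−4.03 ± 0.32) and Dynlrb1 (−3.47 ± 0.34) lower.

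From DIV0 to DIV28, 3 of the 6 mitotic kinesins tested fell, where 7.45% of 12890 genes fell and 11.5% rose. They were Kif15 (−3.33 ± 0.69), a second spindle motor, Kif20b (−2.93 ± 0.58) and Kif23 (−2.96 ± 0.57), with 101.9 and 74.9, 188.2 and 143.7, and 79.7 and 52.0 counts at DIV0. Their DIV28 counts were 2.3 to 13.9, 11.3 to 41.6 and 7.0 to 8.8, all below DIV0. Each call was lost in 4 of the 5 fits that left out 1 library: all 3 without either DIV0 library or DIV28 replicate 1, Kif15 and Kif23 also without replicate 3 and Kif20b without replicate 2 (−3.56 to −3.00, −3.11 to −2.59 and −3.24 to −2.60). With the library titled DIV0 placed in DIV0, none of the 2 then tested passed. The 7 tested proliferation genes changed by a median of −1.29, and 3 of them fell.

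Kif22 was the mitotic kinesin with more counts at DIV28 than at DIV0. It counted 26.1 and 30.6 at DIV0, 46.9 and 16.6 at DIV7, and 108.9, 124.4 and 56.1 at DIV28 (1.80 ± 0.52 from DIV0, edgeR adjusted p = 0.0168, not past the limits), with 67.0, 66.8 and 46.7 under TTX. Against P21 (2.8, 7.0 and 9.7) it was 3.93 ± 0.45 higher at DIV28, the only mitotic kinesin called in that comparison. Its mean effective length was 1768 bases at E10.5 and 1593 at DIV0 but 479.6 at DIV28 and 628.6 at P21, so the later reads were assigned to shorter transcript models. Its part in the difference was not tested.

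Of the axonal kinesins in culture, none rose past the limits. Kif1a counted 2215 and 1984 at DIV0, 5061 and 5581 at DIV7, and 5529, 4426 and 2991 at DIV28, with changes of 1.35 ± 0.35 to DIV7 (edgeR adjusted p = 0.0164) and 1.07 ± 0.33 to DIV28 (0.0223). Kif5a counted 1993 and 1888 at DIV0 and 3683, 5029 and 2630 at DIV28 (0.99 ± 0.36, edgeR adjusted p = 0.0444). In both genes all DIV28 libraries lay above DIV0. Kif21b, a kinesin-4 that also pauses microtubule growth, fell from 1909 and 2003 at DIV0 to 866.7, 877.1 and 821.9 at DIV28 (−1.16 ± 0.24), a call lost in each of the 5 fits that left out 1 library (−1.19 to −1.13). Within the KIF21 pair, Kif21a held 63.9 ± 0.58% of the level per length at DIV0 (n = 2), 91.1 ± 2.61% at DIV28 (n = 3) and 78.0 ± 2.08% at P21 (n = 3).

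Dync1i1 stayed below its mature tissue level in culture. Its counts were 135.9 and 76.4 at DIV0, 20.6 and 20.4 at DIV7, and 139.0, 120.8 and 133.5 at DIV28. It fell from DIV0 to DIV7 (−2.36 ± 0.40), where 2.81% of genes fell and 8.36% rose, and rose from DIV7 to DIV28 (2.69 ± 0.38), where 3.62% rose and 4.09% fell. At DIV28 it was 2.18 ± 0.20 below P21 (599.9 to 628.5), and no culture library reached the lowest P21 value. The fall to DIV7 was lost without DIV0 replicate 1 or DIV7 replicate 2 (−1.87 and −2.40). From DIV0 to DIV7, 3 of 5 motor neuron markers also fell, and their sum was 4675 to 5764 at DIV0, 1756 to 1839 at DIV7 and 1634 to 1987 at DIV28. Astrocyte markers summed to 60.1 to 93.2 at DIV0 and 352.7 to 954.0 at DIV7 (1 of 5 tested higher), and the part of neither list was tested. The log2 ratio to Dync1i2 was −3.701 ± 0.60 (SD, n = 2) at DIV0, −6.19 ± 0.0024 (n = 2) at DIV7 and −4.19 ± 0.62 (n = 3) at DIV28.

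The 3 calls from DIV0 to DIV7 were falls of Dync1i1, Kif13b (−1.61 ± 0.35) and Dynlt1f (−1.64 ± 0.36), and none of 42 members rose. Kif13b lost its call without DIV0 replicate 1 or either DIV7 library (−1.79 to −1.26), and Dynlt1f without any 1 of the 4 libraries (−1.84 to −1.39), so no call at this step held in every such fit. The 2 rises from DIV7 to DIV28 were Dync1i1 and Dynlt3, which counted 41.3 and 75.2 at DIV7 and 266.5, 367.0 and 238.5 at DIV28 (2.32 ± 0.35), and none fell. Both held without any 1 library.

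From DIV0 to DIV28, 2 of 42 members rose and 9 fell, where 11.5% of genes rose and 7.45% fell. The rises were Dynlt3 (2.23 ± 0.34) and Dynlrb1 (1.99 ± 0.37, lost without either DIV0 library, 1.78 and 2.25). Beside the mitotic kinesins and Kif21b, the largest falls were those of Kif26a, from 459.9 and 391.4 at DIV0 to 18.5, 0.3 and 8.8 at DIV28 (−5.77 ± 1.01, and −5.55 and not past the limits without DIV0 replicate 1), Kif24 (−2.13 ± 0.39, lost without either DIV0 library, −2.14 and −2.11), Dynlt1a and Dynlt1f. Dynlt1a (−1.76 ± 0.34) was lost without either DIV0 library or DIV28 replicate 2 or 3 (−1.84 to −1.61) and Dynlt1f (−1.68 ± 0.31) without DIV0 replicate 2 (−1.43). Kif13b (−1.55 ± 0.31) was lost without DIV0 replicate 1 or DIV28 replicate 1 or 3 (−1.499 to −1.21). With the library titled DIV0 placed in DIV0, no member passed.

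Comparing P21 with DIV28 sets neurons of tissue against cultured ones, 2 sources that differ in more than time. All 6 oligodendrocyte markers were lower at DIV28 (sums of 31.98 to 48.86, against 5990 to 8183 at P21), as were all 4 erythroid markers (0 to 1.16, against 105.2 to 192.7) and 3 of 6 astrocyte markers, while none of 5 motor neuron markers passed the limits. Their part in the differences was not tested. Of 51 members 7 were higher in culture and 4 lower, where 13.3% of genes were higher and 13.1% lower. The higher ones included Kif22, Kif21a (1.21 ± 0.19, and 0.90 without DIV28 replicate 2), Kif3b (1.56 ± 0.21) and Dync1i2 (1.22 ± 0.19, and 0.92 without DIV28 replicate 2). Kif3b, the partner of Kif3a, counted 195.8, 220.7 and 193.4 at P21 and 434.5, 822.8 and 458.7 at DIV28. The light chains Dynll1 (1.03 ± 0.25), Dynlrb1 (1.08 ± 0.26) and Dynlt1c (1.497 ± 0.35) were the others, and each of these 3 lost its call in 3 or 4 of the fits without 1 library, among them those without P21 replicate 1. Dynll1 also lost it without P21 replicate 2 or 3 or DIV28 replicate 1 (0.77 to 1.08), Dynlrb1 without P21 replicate 3 or DIV28 replicate 1 or 2 (0.89 to 1.08) and Dynlt1c without P21 replicate 3 or DIV28 replicate 2 (1.26 to 1.43).

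Lower in culture were Dync1i1, Kif26a (−2.62 ± 0.62, lost without P21 replicate 2 or DIV28 replicate 2, −2.54 and −1.67), Kif6, known from motile cilia, with 26.2 to 28.1 counts at P21 and 3.5 to 5.8 at DIV28 (−2.34 ± 0.39), and Kif19a. Kif19a had 3 counts over the DIV28 libraries, a ratio of 15.67 with a 95% counting interval of 5.364 to 76.01, and its call was lost without P21 replicate 2 or 3 or DIV28 replicate 2.

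A test of the difference between the 2 changes, DIV0 to DIV28 minus E13.5 to P21, called 13 members higher and 5 lower, where 24.2% of genes were higher and 17.5% lower. Kif11 changed by −1.70 in culture and −4.44 in tissue, from 60.1 and 45.9 at DIV0 against 369.4 and 594.2 at E13.5, and the difference was 2.99 ± 0.54. The changes come from the separate fits of culture and tissue and the difference from the joint fit of both, so they do not subtract exactly to it. Dynll1 changed by 0.31 in culture and −4.56 in tissue (difference 5.06 ± 0.40), after starting 4.03 lower at DIV0 than at E13.5. Dync1i1 changed by 0.33 in culture and 3.18 in tissue (difference −2.66 ± 0.32), with starts that differed by 0.48 ± 0.26. Of the 10 axonal kinesins, Kif3b (1.46 ± 0.33) and Kif5b (1.62 ± 0.33) differed past the limits, both short of them without E13.5 replicate 2 (1.38 and 1.33) and Kif3b also without DIV0 replicate 1 (1.46).

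Silencing with TTX from DIV0 to DIV28 called no member. Of 12890 genes 0.279% were higher and 0.403% lower under TTX, and edgeR called none of the 42 members tested, with 1 at an unadjusted p under 0.05 (Dync2h1) and the smallest adjusted p at 0.556. DESeq2 called none and gave 3 at an unadjusted p under 0.05. Cultures with the same replicate number deviated together, and the fit with these pairs as a block also called none of 33 members. In that fit 13 of the 33 had an unadjusted p under 0.05, against 0 in the fit of the same 6 libraries without the block. At an adjusted p under 0.05 there were 5: Kif5b (0.42), Kif26b (0.40), Dync1i2 (0.42), Dynll1 (0.50) and Dync2h1 (−0.48), all well under 2-fold. The shares of all genes at these p limits in the fit with the block are not given. These counts therefore do not show a response particular to the members.

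The differences within pairs were under 2-fold for the axonal kinesins and dynein-1 subunits. Of the 10 axonal kinesins 6 were higher under TTX in all 3 pairs and 1, Kif21a, in none. Kif21b, Kif3b and Kif3c changed sign between pairs. All 5 dynein-1 subunits were higher in all 3 pairs. Kif1a was 0.21, 0.29 and 0.34 higher on the log2 scale under TTX in pairs 1, 2 and 3, Kif5c 0.33, 0.34 and 0.38, and Dync1i1 0.63, 0.32 and 0.80. Kif21a was lower by 0.17, 0.12 and 0.19 in the same pairs. The fit without pairs gave a median change of 0.01 over all genes tested, and such a median within pairs is not given. Neural progenitor markers summed to 829.9 to 848.1 at DIV28 and 1530 to 1877 under TTX, and motor neuron markers to 1634 to 1987 and 908.7 to 1564. None of the 3 progenitor and 5 motor neuron markers tested passed the limits. A change of cell makeup and a change of RNA per cell cannot be told apart here, and the part of either in these differences was not tested. The library of pair 3 without TTX is the one titled DIV0.

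A few starts had fewer ATAC peaks than the rest. Kif5b had a peak over its GENCODE start in 1 of 22 libraries, but in all 22 within 1000 bases, and Kif5a in 18, with neither E10.5 library among them. Kif13b and Kif2b had no peak at the start in any library, and Kif13b was transcribed in every RNA library, at 166.2 to 959.1 counts.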

How the data were processed

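RNA was measured in 28 libraries and open chromatin in 22. For RNA, the authors trimmed reads, aligned them to mm10 with STAR 2.5.2b and deposited RSEM 1.3.0 expected counts per gene, and counting was not stated to use strand. For ATAC-seq, the authors aligned reads with BWA and deposited MACS2 2.2.7.1 peaks called library by library, with a fold enrichment over background (signal ratio), a −log10 p-value and q-value and a score for each peak. Replicates pool several animals or embryos, or are separate cultures of 1 cell line, so p-values cover the spread between such libraries.

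Expected counts were rounded, scaled with TMM factors and tested with edgeR 4.0.16 (quasi-likelihood, R 4.3.3) in 3 fits, of tissue, of culture and of both. Genes needed 5 CPM in every library of at least 1 group. Limits were p under 0.001 and 2-fold, as in the study, and adjusted p-values are Benjamini-Hochberg over all genes tested. DESeq2 1.42.0, other limits, other filters and leaving out each library were alternatives. Levels per length divide counts by RSEM's effective length. A peak counted at a gene when it overlapped the GENCODE M21 start. The script was tested on simulated data.

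Members and lists were chosen with earlier results of these data known. Named are the mitotic, axonal and dynein-1 genes, of other members past the limits the 4 with the largest change in each direction per comparison, and at most 3 genes of each list of non-members. DIV28 and TTX libraries with the same replicate number come from paired cultures in the study's supplement, and their deviations from the group means correlated at 0.362, 0.32 and 0.468, while the other pairings correlated negatively. Deviations from a group mean cancel within the group, so the negative values go with the positive ones by arithmetic and add no support.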

Additional observations from a re-analysis of the deposited data

Results flagged for a closer look

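For 18 members the change in culture (DIV0 to DIV28) differed from the change in tissue (E13.5 to P21) by edgeR's test of the difference itself, at p under 0.001 and at least 2-fold. The values are log2 changes in culture minus log2 changes in tissue, and the 2 sources also differ at their starts. They come from the joint fit, while the changes given beside them come from the separate fits of culture and tissue and do not subtract exactly to them.

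Among mitotic kinesins the difference was 2.99 for Kif11, 6.30 for Kif22 and 3.34 for Kif23. Kif22 changed by 1.80 in culture and −4.29 in tissue. Kif23 changed by −2.96 and −6.09, and lost its call without E13.5 replicate 2, DIV0 replicate 2 or DIV28 replicate 2 (2.78 to 3.35).

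Of the transport kinesins, the difference was 1.46 for Kif3b, 1.62 for Kif5b and 2.31 for Kif1c, and −2.40 for Kif13b and −1.87 for Kif17. Kif13b changed by −1.55 in culture and 1.05 in tissue. Kif17 changed by 1.10 and 3.18, and its call was lost in 7 of the 10 fits without 1 library (−1.91 to −1.21).

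For the microtubule regulators and partners it was 2.18 for Kif1bp, 1.48 for Kif2a and −1.49 for Kif26b, the last lost without E13.5 replicate 2 or DIV0 replicate 2 (−1.10 and −1.14).

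In the dyneins it was −2.66 for Dync1i1, 2.18 for Dync1i2 and −2.004 for Dync2h1. The light chains stood at 5.06 for Dynll1, 4.55 for Dynlrb1, 2.57 for Dynlt3 and 2.27 for Dynll2. Dynlrb1 changed by 1.99 in culture and −2.35 in tissue, and was 3.47 lower at DIV0 than at E13.5 on the log2 scale.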

How the results depend on the processing

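Of 146 calls of a member in a comparison, 88 held in every fit without 1 library, 79 held in every setting, and none reversed. E13.5, P13, 2yr, DIV0 and DIV7 had 2 libraries each, so a fit without one assumes that the lone library varies like the others. Depth limits low members: Kif18b, Kif2c and Kif19a had 3 counts or fewer over a group.

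With an adjusted p under 0.05 and no fold limit, members called were 29 from E10.5 to E13.5, 14 from P13 to P21, 22 from P4 to P13, 11 from DIV0 to DIV7, 5 from DIV7 to DIV28, 24 from DIV0 to DIV28, 32 from E13.5 to DIV0, 21 from P21 to DIV28 and 33 for the difference of changes. With the 2-fold limit kept they were 16 from P4 to P13, 11 from DIV0 to DIV7, 4 from DIV7 to DIV28, 21 from DIV0 to DIV28 and 28 for the difference, and mitotic kinesins lower from DIV0 to DIV28 were 5 under both. With only the compared libraries they were 11 from E10.5 to E13.5, 9 from DIV0 to DIV7 and 5 from P21 to DIV28. Without the filter on low counts they were 14 from P4 to P13, 1 from P21 to P56, 1 from P56 to 2yr, 7 from DIV0 to DIV7, 4 from DIV7 to DIV28 and 19 from DIV0 to DIV28. DESeq2 gave 1 from P21 to P56, 6 from DIV0 to DIV7 and 18 from DIV0 to DIV28. With the library titled DIV0 placed in DIV0 they were 1, 1 and 0 at the 3 culture steps, with 0 mitotic kinesins lower. The replicate block called 0 members under TTX, as without it, and changed no call. Median-of-ratios scaling shifted the members' median by 0.108 from E10.5 to E13.5 and −0.110 from E13.5 to P4, where the dynein-1 medians became 0.75 and −0.45. The Dync1i1 to Dync1i2 ratio at DIV7 without an offset was −6.24, and when 150 bases of overlap were asked for, 3 of 5 dynein-1 starts, 9 of 11 mitotic kinesins and 41 of 56 members had a peak in all libraries. With any RefSeq start of a gene in place of the GENCODE start, a choice made after seeing the data, 45 of 56 members and 9 of 11 mitotic kinesins had a peak in all libraries. The cause of these shifts was not tested. Shares of all genes called are not given for these settings or for the fits without 1 library. The counts therefore show only how the calls of members vary with the setting.

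Without 1 library, members called ranged from 2 to 5 from P13 to P21, 0 to 2 from DIV0 to DIV7, 2 to 9 from DIV0 to DIV28 and 6 to 12 from P21 to DIV28, and mitotic kinesins lower from DIV0 to DIV28 from 0 to 2. The mitotic median ranged from −3.18 to −2.35 from E13.5 to P4, −1.33 to −0.55 from P13 to P21, −0.27 to 0.52 from P56 to 2yr, −5.65 to −4.57 from E13.5 to P21, −3.15 to −2.06 from E13.5 to DIV0, −0.10 to 0.72 from P21 to DIV28 and 2.58 to 3.61 for the difference. The axonal median ranged from −0.10 to 0.87 from E10.5 to E13.5, 0.26 to 0.82 from E13.5 to P21, 0.24 to 0.73 from E13.5 to DIV0 and −0.43 to 0.26 for the difference. The dynein-1 median ranged from 0.60 to 0.89 from E10.5 to E13.5, −0.43 to −0.22 from E13.5 to P4, 0.37 to 0.82 from DIV0 to DIV28, 0.13 to 0.36 under TTX, −0.67 to −0.47 from E13.5 to DIV0, 0.10 to 0.42 from P21 to DIV28 and 0.84 to 1.23 for the difference.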
